A study of Mus musculus with 6 samples.

Results

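The 9 monocyte marker genes are Ccr2, Cx3cr1, Ly86, F13a1, Fn1, Spn, Ms4a4c, Ms4a6c and Pld4. They were chosen by symbol, taking every probe set of the array that the platform annotation assigns to 1 of these genes alone. This gave 17 probe sets among 34945 probe sets with 1 gene symbol, and 9 genes among 18193. RNA came from cells sorted from the femur and tibia marrow of mice (C57BL/6) that carry an Hdc-GFP reporter, all labelled female. In these mice green fluorescent protein reports Hdc, the gene of the histamine-making enzyme histidine decarboxylase. The Gr1hi group (3 arrays) was sorted as GFP-positive or GFP-high, CD11b-positive and high for Gr1, an antigen shared by Ly6G and Ly6C. The Gr1lo group (3 arrays) carried the same reporter and gates but was low for Gr1. The mice's age and any treatment are not given, and the description of Gr1lo replicate 3 spells the reporter so that it could be read as GFP-negative. The comparison asks how the marker genes differ between Gr1hi and Gr1lo cells of the reporter-positive compartment.

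Monocytes arise from granulocyte-monocyte progenitors in the marrow, next to the neutrophils that share the CD11b gate. In mice they are divided into Ly6C-high cells, which leave the marrow through the chemokine receptor Ccr2, and Ly6C-low cells, which are rich in Cx3cr1 and in Spn and patrol vessels. Most of the 9 genes are known as markers because monocytes hold more of them than neutrophils do. Several are not restricted to monocytes: Spn is made by most leukocytes, F13a1 also by megakaryocytes, and Fn1 by many tissues.

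The promoters of 3 members are shown because these windows lie outside the bounds of the gene itself in RefSeq, which makes them plain upstream sequence: F13a1 differed between the groups, its neighbour Ly86 did not pass the test, and Cx3cr1 was barely above background. Each run gives the 250 bases before the start, 5′ to 3′ on the gene's strand, from RefSeq in build GRCm38.p6. Capitals mark GAGGAA, the core that PU.1, the leading transcription factor of myeloid cells, can bind.
F13a1, chr13:37050245-37050494, minus strand: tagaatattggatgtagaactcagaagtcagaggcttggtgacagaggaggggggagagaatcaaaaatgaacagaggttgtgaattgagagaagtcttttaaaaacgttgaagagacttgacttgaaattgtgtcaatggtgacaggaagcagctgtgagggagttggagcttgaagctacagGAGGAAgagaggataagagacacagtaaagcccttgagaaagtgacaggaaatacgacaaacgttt
Ly86, chr13:37345095-37345344, plus strand: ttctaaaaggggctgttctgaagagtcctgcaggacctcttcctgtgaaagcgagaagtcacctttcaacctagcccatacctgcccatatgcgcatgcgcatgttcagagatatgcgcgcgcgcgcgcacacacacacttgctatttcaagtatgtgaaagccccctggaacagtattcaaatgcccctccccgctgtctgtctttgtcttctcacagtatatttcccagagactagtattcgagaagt
Cx3cr1, chr9:120068297-120068546, minus strand: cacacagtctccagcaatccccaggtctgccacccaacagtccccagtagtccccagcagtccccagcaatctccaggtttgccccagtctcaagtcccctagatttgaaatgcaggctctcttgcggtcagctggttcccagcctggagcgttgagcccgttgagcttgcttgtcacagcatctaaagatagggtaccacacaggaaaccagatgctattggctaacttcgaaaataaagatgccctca
RefSeq has an entry for 8 of the 9 members, with 9 windows in all since F13a1 has 2 starts. GAGGAA or its reverse complement TTCCTC was found in 2 windows, those of F13a1 and Ms4a4c, against 23.3% of the 32851 windows of all genes. Both matches lay on the gene's own strand, the one of F13a1 beginning 66 bases and the one of Ms4a4c 61 bases before the start. TTGCNNAA, a C/EBP-type motif (reverse complement TTNNGCAA), is in 9.56% of all windows. An IRF-type motif, GAAA followed by any 2 bases and GAAA again, is on either strand in 2.98% of them. Neither of these was found in a member's window. F13a1 and Ly86 are next to each other on chromosome 13 with 0 protein-coding genes between them, and Ms4a4c and Ms4a6c are separated by 1 gene, Ms4a4b, on chromosome 19.

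The array values are on a log2 scale and were made with GCRMA, so that 1 unit is a doubling, and differences are Gr1hi minus Gr1lo on that scale. A gene with several probe sets was read at the brightest one, judged by the mean over all arrays. The highest value of the control probe sets of a transcript that the cells lack was 2.77, which serves as a background mark. Adjusted p-values come from limma over 12739 tested genes, and a gene is called at an adjusted p under 0.05. The number of arrays limits the precision. No label says whether the samples of a group came from separate animals, so the tests measure only the spread between these samples.

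The arrays of 1 replicate number stood apart. Xist, the RNA that coats the inactive X chromosome, was at 10.14 on Gr1hi replicate 3 and 10.95 on Gr1lo replicate 3, whereas on the other arrays it was at most 2.43. Eif2s3y, a Y-linked gene, lay between 9.02 and 10.66 on all 6 arrays, against the female label. It was lowest on replicate 3 in both groups (9.91 in Gr1hi and 9.02 in Gr1lo), as were the Y-linked genes Kdm5d and Uty. The members' results and the counts of the gene lists related to them are therefore also given without both replicate 3 arrays. Calls that other named genes of the gene lists lost or gained there are given too. Hdc and Itgam, which encodes CD11b, were high on all arrays (means of 12.33 and 12.16 in Gr1hi, and 10.86 and 11.28 in Gr1lo). Ly6g, Ly6c1 and Ly6c2 have no single-gene probe set among those used, so the Gr1 antigen and Ly6C could not be checked. Of 21 tested mature neutrophil genes 14 were called higher in Gr1hi and 0 lower, and of 11 tested progenitor and early granule genes 0 were called higher and 9 lower. Over all tested genes 24.6% were called higher and 31.8% lower.

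As a group the 9 genes did not move 1 way. Fn1 and Ms4a4c were called higher in Gr1hi, Spn and F13a1 were called lower, and Ccr2, Cx3cr1, Ly86, Ms4a6c and Pld4 did not pass the test. All 9 passed the filter on low values. The 4 called genes are 44.4% of the members, against 56.4% of all tested genes, and their directions were 2 higher and 2 lower, against 24.6% higher and 31.8% lower over all genes. The members' median difference was 0.11, against 0.03 over all genes. The Gr1hi and Gr1lo arrays did not overlap in 3 members, Fn1, Ms4a4c and Spn, against 65.5% of all tested genes. Without both replicate 3 arrays 0 members were called higher and 2 lower, again Spn and F13a1, while 50.8% of all genes were called. In sorted bulk samples, fewer cells of a type and less RNA per cell cannot be told apart.

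**Figure D1:**
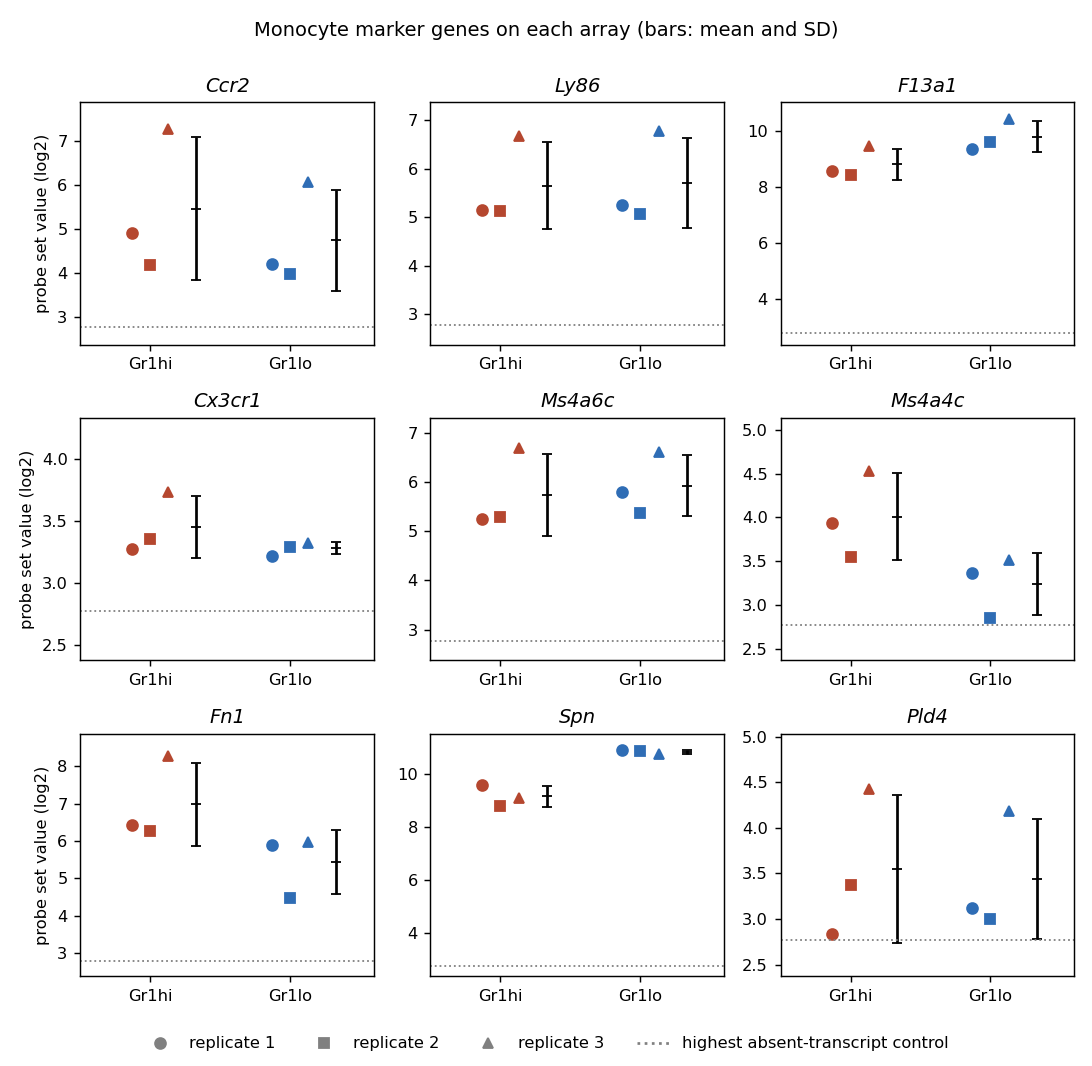
Probe set values (log2) of the 9 genes on each array, Gr1hi in red on the left and Gr1lo in blue on the right of each panel, with marker shape for the replicate number, the mean with SD as bars and the highest absent-transcript control (2.77) as a dotted line. Replicate 3 (triangles) is the highest array of both groups in every panel but that of Spn, where the Gr1hi arrays all lie below the Gr1lo arrays.

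Spn was lower in Gr1hi, with the smallest adjusted p of the 9 members. It encodes CD43 (leukosialin), a long sialylated mucin on the surface of leukocytes. Its values were 9.57, 8.80 and 9.08 on the Gr1hi arrays, against 10.90, 10.84 and 10.75 on the Gr1lo arrays. All Gr1hi arrays lay below all Gr1lo arrays, and both groups were far above background. The means were 9.15 ± 0.39 in Gr1hi and 10.83 ± 0.07 in Gr1lo (SD, n = 3 each), a difference of -1.68 (SE 0.18, limma adjusted p = 3.33e-05), 3.2-fold lower. Its other probe set read 5.12, 5.25 and 5.20 in Gr1hi, against 6.90, 6.83 and 6.62 in Gr1lo. That probe set differed by -1.6 (SE 0.17, limma adjusted p = 3.58e-05 over 22715 probe sets), in the same direction and close in size. Spn was called lower under all 20 alternatives, and without both replicate 3 arrays it differed by -1.68 (adjusted p = 0.00126).

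F13a1, which encodes the catalytic A subunit of coagulation factor XIII, a transglutaminase that crosslinks fibrin, was lower in Gr1hi as well. It read 8.58, 8.43 and 9.46 on the Gr1hi arrays, against 9.37, 9.62 and 10.43 on the Gr1lo arrays. The highest Gr1hi array, replicate 3, lay just above the lowest Gr1lo array, so the groups overlapped. The means were 8.82 ± 0.56 in Gr1hi and 9.80 ± 0.55 in Gr1lo, a difference of -0.98 (SE 0.32, adjusted p = 0.0246), 1.97-fold lower. Without both replicate 3 arrays the difference was -0.99 and its SE was 0.17 (adjusted p = 0.0027). The call was lost without Gr1lo replicate 3 (adjusted p = 0.0778), Gr1hi replicate 1 (0.0797) or Gr1hi replicate 2 (0.0987), and when each array was centred on its median over kept genes (difference -0.31, adjusted p = 0.369; 0.000243 to 0.369 over all alternatives).

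Related genes were read from a list of 20 ligands and partners, of which 15 were tested, 10 were called higher in Gr1hi and 1 lower, against 24.6% higher and 31.8% lower over all genes. Siglec1, Tlr9 and Cd180, among those called higher, had Gr1lo means at or below the background mark, Siglec1 in Gr1hi too. With both replicate 3 arrays left out, 7 were called higher and 1 lower. The counts were 14 higher and 0 lower when arrays were centred on kept genes, and 4 higher and 1 lower after centring on spiked hybridization controls. F13b, which encodes the carrier B subunit of factor XIII, was between 1.62 and 2.06 on all arrays, below the background mark, and was not tested. Tgm2, which encodes the tissue transglutaminase, averaged 9.83 ± 0.10 in Gr1hi and 4.76 ± 0.56 in Gr1lo, a difference of 5.07 (adjusted p = 4.41e-07). The opposite signs of Tgm2 and F13a1 were not tested against each other.

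Fn1, which encodes the matrix glycoprotein fibronectin, was higher in Gr1hi, a call that depended on single arrays and on the settings. It read 6.42, 6.26 and 8.27 in Gr1hi, against 5.88, 4.46 and 5.98 in Gr1lo. The groups did not overlap, although the lowest Gr1hi array and the highest Gr1lo array were less than 1 SD apart in either group. The means were 6.98 ± 1.12 in Gr1hi and 5.44 ± 0.85 in Gr1lo, a difference of 1.54 (SE 0.56, adjusted p = 0.0408), 2.91-fold higher. The call was lost without both replicate 3 arrays (difference 1.17, adjusted p = 0.0674), without Gr1hi replicate 3 (0.90, adjusted p = 0.125) and without Gr1lo replicate 2 (1.05, adjusted p = 0.12). With all arrays kept, it was lost without the variance trend (adjusted p = 0.0641) and with a robust variance fit (0.068). It was also lost with values floored at the absent-transcript controls (0.0749) and with probe sets averaged (difference 0.82, adjusted p = 0.0918). The other Fn1 probe set lay between 2.26 and 2.86, at background, with a difference of 0.09 (adjusted p = 0.671).

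Among the integrins that bind fibronectin, the directions were mixed. Itga4 rose by 0.66 (adjusted p = 0.00281) and Itgb3 by 1.21 (adjusted p = 0.0159), while Itgb1, the shared beta chain of several fibronectin receptors, fell by 1.03 (adjusted p = 0.00105). Itga4 averaged 9.08 ± 0.18 in Gr1hi and 8.42 ± 0.11 in Gr1lo, and Itgb1 averaged 6.68 ± 0.12 in Gr1hi and 7.71 ± 0.28 in Gr1lo. Itga5 was at 3.19 in Gr1hi and 3.02 in Gr1lo on average and Itgav at 9.29 in Gr1hi and 9.26 in Gr1lo; they did not pass the test (adjusted p = 0.27 for Itga5 and 0.829 for Itgav).

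The chemokine receptor genes Ccr2 and Cx3cr1 did not pass the test. Ccr2, whose product binds Ccl2 and Ccl7 and lets Ly6C-high monocytes leave the marrow, read 4.91, 4.19 and 7.29 in Gr1hi, against 4.20, 3.98 and 6.07 in Gr1lo. Replicate 3 was the high array of both groups, and the other 4 arrays lay within 1 unit of each other. The range within Gr1hi was 3.09 and that within Gr1lo 2.09, both larger than the difference of 0.72 (SE 0.78, adjusted p = 0.456). Both ranges include the high replicate 3 array. With the replicate number as a block, Ccr2 was called higher (limma adjusted p = 0.0343), in only 1 of 20 alternatives. The numbers were not taken as pairs. The difference was 0.47 without both replicate 3 arrays (SE 0.29, adjusted p = 0.217) and -0.19 without Gr1hi replicate 3 alone. The 3 other Ccr2 probe sets were near background, between 1.42 and 3.13, so the gene's level rests on 1 probe set. One of these 3 did not pass the filter, and the other 2 were not called (adjusted p = 0.769 and 0.0787).

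Cx3cr1, the receptor of the membrane-bound chemokine fractalkine, was at the edge of detection in both groups. Its probe set read 3.27, 3.35 and 3.73 in Gr1hi, against 3.22, 3.29 and 3.32 in Gr1lo, which is at most 1 unit above the background mark. The difference was 0.18 (SE 0.15, adjusted p = 0.325), or 0.06 without both replicate 3 arrays (adjusted p = 0.764), and the second probe set differed by 0.26 (adjusted p = 0.123). When each array was centred on its median over kept genes, Cx3cr1 was called higher by 0.85, a centring that moves the median of all genes by a similar amount, to 0.70.

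Other chemokine receptor genes were read beside these. Of 10 tested members of the family 7 were called higher in Gr1hi and 0 lower, with a median difference of 0.64 on the deposited scale, against 24.6% higher and 31.8% lower over all genes. Cxcr3 and Cxcr5, among those called higher, had Gr1lo means at or below the background mark. The counts without both replicate 3 arrays were also 7 higher and 0 lower. After centring on spiked hybridization controls 4 were called higher and 0 lower. Ccr1 averaged 12.11 ± 0.14 in Gr1hi and 9.38 ± 0.43 in Gr1lo, a difference of 2.74. Cxcr2, which neutrophils use to answer CXC chemokines, averaged 10.88 ± 0.11 in Gr1hi and 7.89 ± 0.47 in Gr1lo. Cxcr4, which retains cells in the marrow, averaged 11.39 ± 0.13 in Gr1hi and 10.84 ± 0.08 in Gr1lo (difference 0.54, adjusted p = 0.000995). Ccl2, Ccl7, Ccl8 and Ccl12, genes of Ccr2 ligands, were at or below 2.73 on every array and were not tested. Cx3cl1, the fractalkine gene, differed by 0.08 (adjusted p = 0.569).

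**Figure D2:**
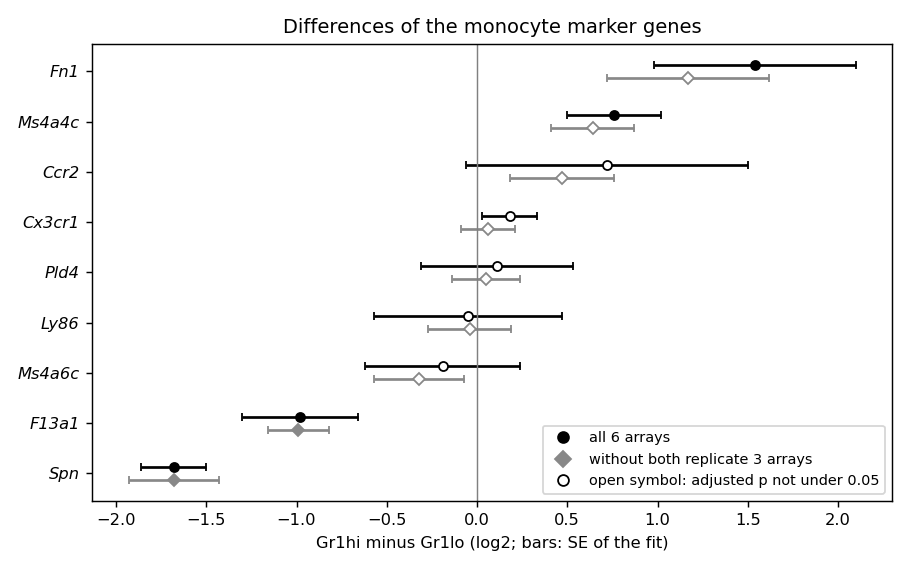
Gr1hi minus Gr1lo (log2, horizontal axis) of the 9 genes with the SE of the fit, over all 6 arrays (black circles) and without both replicate 3 arrays (grey diamonds), filled where the adjusted p was under 0.05. Spn and F13a1 are filled in both, Fn1 and Ms4a4c only over all 6 arrays, and the SE of Ccr2 is 0.78 with and 0.29 without the replicate 3 arrays.

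Ly86 encodes MD-1, the secreted partner that the Toll-like protein CD180 needs to reach the cell surface. It read 5.15, 5.12 and 6.68 in Gr1hi, against 5.26, 5.07 and 6.77 in Gr1lo. The arrays of the same replicate number were nearly equal between the groups, and replicate 3 was the high one in each. The means were 5.65 ± 0.90 in Gr1hi and 5.70 ± 0.93 in Gr1lo, with a difference of -0.05 (SE 0.52, adjusted p = 0.94). Without both replicate 3 arrays it was -0.04 (SE 0.23, adjusted p = 0.904). Cd180 itself was close to background, at 3.07 ± 0.23 in Gr1hi and 2.73 ± 0.11 in Gr1lo, and was called higher by 0.34 (adjusted p = 0.0484), a call lost without both replicate 3 arrays (0.28, adjusted p = 0.0898). It was singled out after its values were seen.

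Pld4, which encodes an endolysosomal exonuclease that trims single-stranded nucleic acids and so limits Tlr7 and Tlr9, was low in both groups. It read 2.84, 3.37 and 4.43 in Gr1hi, against 3.12, 3.00 and 4.19 in Gr1lo. Only the replicate 3 arrays stood clearly above background. The difference was 0.11 (SE 0.42, adjusted p = 0.834), or 0.05 without both replicate 3 arrays (adjusted p = 0.857). Its relative Pld3 averaged 3.85 in Gr1hi and 3.44 in Gr1lo and was called higher by 0.41 (adjusted p = 0.0424), and Pld1 was called higher by 0.59 (adjusted p = 0.00532). Without both replicate 3 arrays Pld3 was not called (0.49, adjusted p = 0.0822), so that 1 of the 3 tested phospholipase D genes was called. Tlr7 and Unc93b1, a receptor and its chaperone, were called higher by 1.90 (adjusted p = 0.0334) and 0.92 (adjusted p = 0.00213). The size for Tlr7 is imprecise (SE 0.66), since its Gr1hi mean of 5.63 had an SD of 1.46. Its Gr1hi replicate 1 array stood out at 7.31. The lowest Gr1hi array of Tlr7 (4.59) lay just above its highest Gr1lo array (4.5). Tlr9 was at background, with 3.04, 2.89 and 2.77 in Gr1hi, against 2.54, 2.50 and 2.50 in Gr1lo, so that 4 of 6 arrays were at or below the mark and no size is given. After centring on spiked hybridization controls 0 of 3 tested phospholipase D genes were called.

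Ms4a6c and Ms4a4c belong to the MS4A family of small membrane proteins that span the membrane several times, whose genes lie in 1 cluster. Ms4a6c read 5.24, 5.29 and 6.70 in Gr1hi, against 5.80, 5.38 and 6.62 in Gr1lo. The groups overlapped and replicate 3 was again the high array of each, with a difference of -0.19 (SE 0.43, adjusted p = 0.731). It was -0.32 without both replicate 3 arrays (adjusted p = 0.33). Its second probe set lay between 2.17 and 2.40, below the background mark, and did not pass the filter.

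Ms4a4c read 3.94, 3.55 and 4.53 in Gr1hi, against 3.37, 2.85 and 3.52 in Gr1lo. The lowest Gr1hi array lay just above the highest Gr1lo array. The means were 4.01 ± 0.50 in Gr1hi and 3.24 ± 0.35 in Gr1lo, a difference of 0.76 (SE 0.26, adjusted p = 0.0321), 1.7-fold higher. The call was lost without both replicate 3 arrays (difference 0.64, adjusted p = 0.0573), and also without any of Gr1hi replicate 1, Gr1hi replicate 3, Gr1lo replicate 1 or Gr1lo replicate 2 (adjusted p between 0.054 and 0.104). The name of this probe set marks it as one that matches several transcripts, so signal of related genes cannot be told apart. The second probe set, of a type whose probes can cross-hybridize, read 3.15, 2.89 and 3.92 in Gr1hi, against 2.79, 2.65 and 3.23 in Gr1lo, and was not called (difference 0.43, adjusted p = 0.182).

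In the rest of the MS4A family 1 of 9 tested genes was called higher in Gr1hi and 2 lower, against 24.6% higher and 31.8% lower over all genes. The counts without both replicate 3 arrays were the same. Ms4a3, a gene of granulocyte-monocyte progenitors, averaged 7.73 ± 0.66 in Gr1hi and 12.55 ± 0.27 in Gr1lo, a difference of -4.82. Ms4a2, the beta chain of the IgE receptor of basophils and mast cells, differed by -1.64 (adjusted p = 0.00206). Ms4a1, the B cell gene of CD20, differed by 0.96 (adjusted p = 0.0093) from a Gr1lo mean of 2.73, at background. Ms4a6b, close in name and place to Ms4a6c, read 5.18, 4.82 and 6.03 in Gr1hi, against 5.38, 5.28 and 6.11 in Gr1lo, with replicate 3 the high array of each group. Ms4a4b, the gene between both members, read 3.71, 3.39 and 5.18 in Gr1hi, against 3.03, 3.33 and 3.85 in Gr1lo, with replicate 3 the high array once more. Neither Ms4a6b nor Ms4a4b was called (adjusted p = 0.558 and 0.19).

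Over all probe sets of the members, 15 of 17 passed the filter and 5 were called, against 56.2% of all 22715 tested probe sets. Lower in Gr1hi were 3, both Spn probe sets and that of F13a1, against 30.0% of all. Higher were 2, 1 each of Fn1 and Ms4a4c, against 26.2% of all. Of the members with more than 1 probe set, only Spn had a second one that was called. Probe sets of 1 gene share its RNA and are not replicates.

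The members' spread between replicates was described beside that of all genes. Their median SD was 0.81 in Gr1hi and 0.632 in Gr1lo, against 0.153 in Gr1hi and 0.151 in Gr1lo over all tested genes. In Gr1hi 0.0157% of tested genes had a larger SD than Ccr2, and in Gr1lo 0.385%. Spn and Cx3cr1 were the tight ones in Gr1lo, with SDs of 0.07 and 0.05, though Cx3cr1 was at the edge of detection there.

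The spread followed the replicate number. In 8 of the 9 members, all but Spn, replicate 3 was the highest array of both groups, against 12.4% of all tested genes. The corresponding share of all genes was 10.2% for replicate 1 and 12.5% for replicate 2. Among the 8 members, Cx3cr1 was nearly flat in Gr1lo, at 3.22, 3.29 and 3.32. Its second probe set did not have replicate 3 highest in either group. Replicate 3 exceeded the mean of replicates 1 and 2 by a median of 1.33 in Gr1hi and 0.93 in Gr1lo over the members, against 0.01 in Gr1hi over all genes. Replicate 3 was picked for this description after the values were seen. A limma F test of the replicate number, also added after that, passed for 0 genes. Ccr2 had its smallest p, with an adjusted p of 0.324.

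Of all tested genes 15 (0.118%) had replicate 3 at least 1 unit above the mean of the others in both groups, and 4 of these were members. They were Ccr2 (by 2.73 in Gr1hi and 1.98 in Gr1lo), Ly86 (1.55 in Gr1hi and 1.6 in Gr1lo), Pld4 (1.33 in Gr1hi and 1.13 in Gr1lo) and Ms4a6c (1.43 in Gr1hi and 1.03 in Gr1lo). At a minimum of 0.5 it was 80 genes (0.628%), with 6 members, F13a1 (0.96 in Gr1hi and 0.93 in Gr1lo) and Fn1 (1.93 in Gr1hi and 0.81 in Gr1lo) besides. The rest of the 15 were Mcpt8, S100a4, Gm11342, Slc30a1, S100a10, Cirbp, Cpa3, Mndal, Irf8, Rab37 and Prdx4. Mcpt8, a basophil protease gene, had the largest excess, with 5.13, 3.13 and 7.74 in Gr1hi, against 5.06, 5.47 and 7.44 in Gr1lo. Cpa3, a carboxypeptidase gene of basophils and mast cells, read 3.44, 3.02 and 5.02 in Gr1hi, against 2.67, 2.42 and 3.78 in Gr1lo. Cpa3 was not called over all arrays (difference 0.87, adjusted p = 0.17). Without both replicate 3 arrays it was called higher in Gr1hi (difference 0.69, adjusted p = 0.0159).

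**Figure D3:**
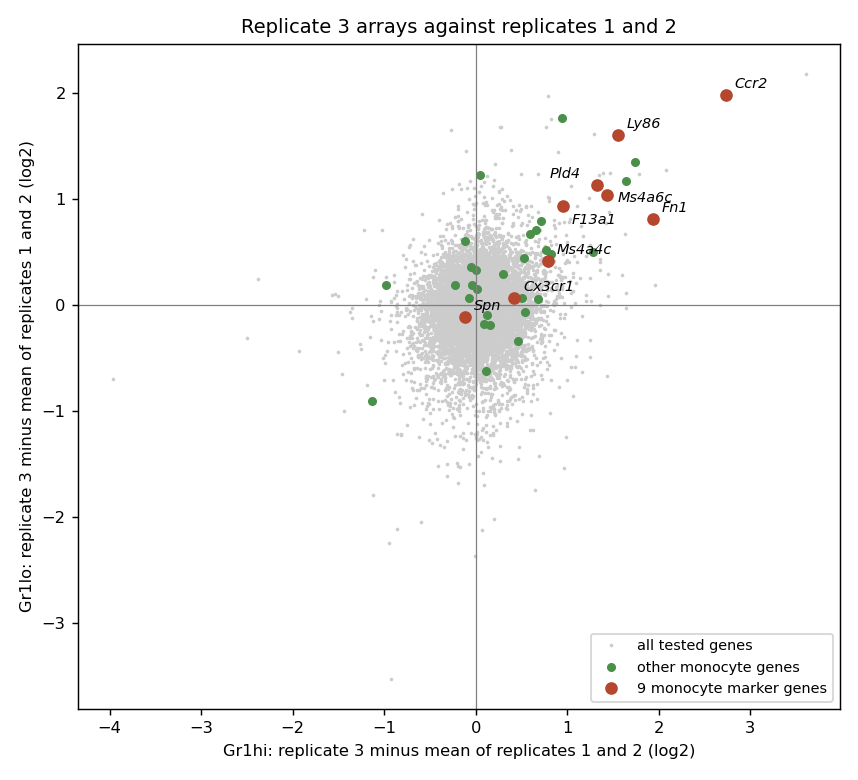
Replicate 3 minus the mean of replicates 1 and 2 (log2) in Gr1hi (horizontal axis) and Gr1lo (vertical axis) for all 12739 tested genes (grey), the other monocyte genes (green) and the 9 marker genes (red). Ccr2, Ly86, Pld4 and Ms4a6c lie above 1 on both axes, with F13a1 and Fn1 close by, whereas Spn lies near 0 on both.

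Lists of other cell types were read beside this pattern, for the arrays as a whole. Among basophil and mast cell genes replicate 3 was the highest array of both groups in 3 of 7 tested genes (Mcpt8, Cpa3 and Il4). The list's summed linear level was 104 to 385 in Gr1hi and 152 to 329 in Gr1lo, highest on replicate 3 in each. On the replicate 3 arrays that sum was led by Mcpt8 (log2 values of 7.74 in Gr1hi and 7.44 in Gr1lo). Il4 was nearly flat, between 3.05 and 3.23 on all arrays. Ms4a2 read 4.45, 3.46 and 4.50 in Gr1hi, against 5.24, 6.08 and 6.01 in Gr1lo, highest on replicate 3 in Gr1hi only. Tpsb2, Gata2 and Hgf, the rest of the tested genes, did not have replicate 3 highest in both groups either. Fcer1a, the alpha chain of the IgE receptor, did not pass the filter and read 2.34, 2.00 and 3.88 in Gr1hi, against 2.28, 2.09 and 2.87 in Gr1lo, above background on replicate 3 only. Cd200r3, Mcpt4 and Cma1, 3 of the 11 genes on the array, were at or below background on all arrays. Among macrophage genes it was 3 of 9 tested (C1qb, Slc40a1 and Cd5l), with summed levels of 4518 to 5473 in Gr1hi and 3497 to 4182 in Gr1lo. Over all 16 macrophage genes on the array it was 7, with C1qa, C1qc, Cd163 and Mertk besides. C1qa, a complement gene, read 2.59, 2.59 and 3.34 in Gr1hi, against 2.24, 2.40 and 2.87 in Gr1lo, above background on replicate 3 only. C1qc, Cd163, Timd4, Mertk and Axl were at or below background on all arrays. Among dendritic cell genes it was 2 of 11 tested (Itgax and Batf3), and over all 16 on the array 4, with Zbtb46 and Clec10a besides. Itgax, the gene of CD11c, read 5.56, 5.20 and 6.55 in Gr1hi, against 2.35, 2.18 and 2.91 in Gr1lo. The summed levels were 230 to 369 in Gr1hi, highest on replicate 3, and 135 to 140 in Gr1lo, highest on replicate 2. Flt3, Xcr1, Cd209a and Clec10a were at or below background on all arrays. For progenitor genes it was 0 of 11 and for mature neutrophil genes 3 of 21. The part of such cells in the members' values was not tested.

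The genes whose profile over the 6 arrays lay nearest to a member, by Euclidean distance after each gene's mean was subtracted, were read for each member. For Ly86 they were Ms4a6c (distance 0.53), S100a10 (0.59) and Pld4 (0.61), and for Pld4 they were Ms4a6c (0.55), Ly86 (0.61) and Ifi209 (0.73), so that these 3 members were in part each other's nearest genes. For Ms4a6c they were Lpl (0.32), S100a10 (0.50) and Ly86 (0.53). For Ccr2 they were Cpa3 (1.02), S100a4 (1.23) and Slc30a1 (1.23), and for Fn1 S100a4 (0.88), Slc30a1 (0.99) and Nr4a1 (1.08). F13a1 was nearest to Prdx4 (0.32), Rassf4 (0.43) and Gtpbp10 (0.47), and Ms4a4c to Ccdc174 (0.20), Pid1 (0.26) and Hgf (0.28). Spn, in which replicate 3 was not high, was nearest to Pigk (0.25), Cisd2 (0.28) and Dnajc15 (0.29). Cx3cr1 was nearest to Mpv17l, Ccdc9 and Speer5-ps1, with distances of 0.10, 0.10 and 0.12 over profiles that varied little.

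Other genes of monocytes were mostly higher in Gr1hi. Of 40 listed genes 32 were on the array with a probe set of their own and 29 were tested. Of these 18 were called higher in Gr1hi, 1 lower and 10 were not called, against 24.6% higher and 31.8% lower over all genes. Ifi204, Dusp16 and Slfn5, among those called higher, had Gr1lo means below the background mark. With both replicate 3 arrays left out, 19 were called higher and 3 lower. Their median difference was 1.41, and after centring on spiked hybridization controls 17 were called higher and 3 lower. Many of these genes are also expressed by neutrophils or macrophages, so the list does not separate the cell types. Cd68, a lysosomal glycoprotein gene of phagocytes, averaged 9.34 ± 0.35 in Gr1hi and 4.93 ± 0.29 in Gr1lo, a difference of 4.42. Cd14, the lipopolysaccharide co-receptor gene, differed by 5.23, Clec4a3 by 3.72 and Apoc2 by 3.44. The Fc receptor gene Fcgr4 averaged 11.28 ± 0.07 in Gr1hi and 8.66 ± 0.42 in Gr1lo, and Treml4, a marker of Ly6C-low monocytes, 10.26 ± 0.10 in Gr1hi and 8.21 ± 0.25 in Gr1lo. Emb differed by 2.56 and Itgal, an integrin gene, by 1.41. These 8 genes had adjusted p-values of 4.68e-06 or lower. Lair1, an inhibitory receptor gene, was the 1 that fell, with 5.77 ± 0.30 in Gr1hi and 8.59 ± 0.39 in Gr1lo. The rise of Treml4 does not stand for Ly6C-low monocytes as a whole. Of the other genes tied to them here, Cx3cr1 and Nr4a1 were not called (differences of 0.18 and 0.95). Spn was lower in Gr1hi (difference -1.68).

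**Figure D4:**
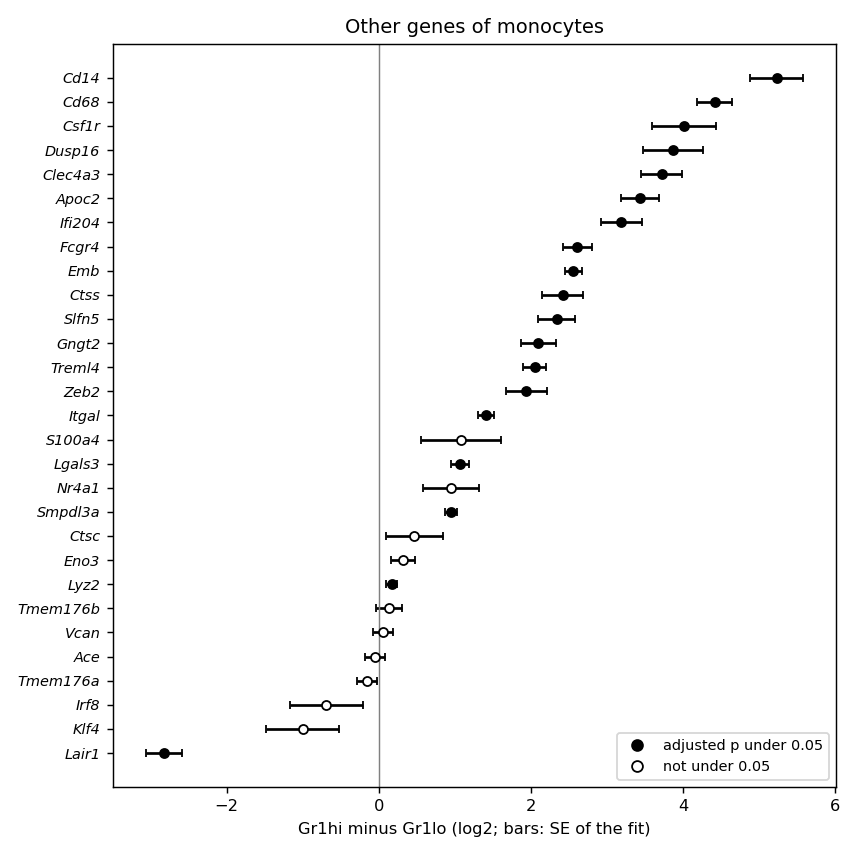
Gr1hi minus Gr1lo (log2, horizontal axis) with the SE of the fit for the 29 tested genes of the list of other monocyte genes, filled where the adjusted p was under 0.05. The values run from -2.82 for Lair1 to 5.23 for Cd14, and Irf8 and Klf4 lie below 0 without passing the test.

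The list holds 6 transcription factor genes with a probe set of their own, and in 4 of them replicate 3 was the highest array of both groups. Irf8, which commits progenitors to monocytes and dendritic cells, read 3.13, 3.53 and 4.98 in Gr1hi, against 4.0, 4.36 and 5.34 in Gr1lo. Klf4, needed for Ly6C-high monocytes, read 4.14, 4.55 and 5.29 in Gr1hi, against 4.94, 5.21 and 6.83 in Gr1lo. Nr4a1, needed for Ly6C-low monocytes, read 4.58, 4.75 and 5.95 in Gr1hi, against 4.34, 3.61 and 4.47 in Gr1lo. Irf8, Klf4 and Nr4a1 were not called over all arrays (adjusted p = 0.252, 0.106 and 0.0531). Zeb2, the fourth gene with replicate 3 highest in both groups, read 6.35, 6.59 and 7.29 in Gr1hi, against 4.66, 4.63 and 5.12 in Gr1lo, and was called higher by 1.94 (adjusted p = 0.000206). Irf4 and Pou2f2 were at or below background on all arrays. Without both replicate 3 arrays Irf8 and Klf4 were called lower, by -0.85 (adjusted p = 0.0177) and -0.73 (adjusted p = 0.0473), and S100a4 was called higher by 0.95 (adjusted p = 0.0365). In the whole list replicate 3 was the highest array of both groups in 10 of 29 tested genes, with a median excess of 0.30 in Gr1hi and 0.29 in Gr1lo. The summed linear level of the list was 60983 to 63157 in Gr1hi and 30816 to 38305 in Gr1lo, and that of the 9 members was 994 to 1974 in Gr1hi and 2755 to 3475 in Gr1lo, a sum led by Spn and F13a1.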

How the data were processed

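The authors' deposited table holds log2 probe set values of 6 arrays (3 Gr1hi, 3 Gr1lo, 100 ng of RNA each), produced by GCRMA, per the submitters' processing notes, which state no version. It has 45101 probe sets and no detection calls. Of these 34945 have 1 symbol in the platform annotation, 932 several and 9160 none, and 64 are controls; RefSeq (GRCm38.p6) changed 0 symbols. The background mark is the highest value of 3 control probe sets of a bacterial gene. Each gene was taken at its brightest probe set and kept where at least 3 arrays exceeded their 40th percentile. With lmFit and a trended eBayes, limma 3.58.1 (R 4.3.3) tested Gr1hi minus Gr1lo, two-sided, with Benjamini-Hochberg adjustment over all tested genes; the fit was tested on simulated data. The members, lists and alternatives were chosen with earlier results of these data known. Named were all members, up to 8 genes a list with the smallest p, list genes bearing on a member, and the 3 genes nearest to each member; others were chosen after their values were seen. Alternatives changed the scaling, the filter, the probe set rule, the floor, the variance model, the threshold, the replicate block and the arrays included. Figures used Python 3.11.15 and matplotlib 3.10.9. No 2 arrays held the same values.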

Additional observations from a re-analysis of the deposited data

How the results depend on the processing

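Of 20 alternatives, Spn was called lower in 20, F13a1 in 14, Fn1 higher in 11 and Ms4a4c in 10 (Ms4a4c 0.0123 to 0.104 in adjusted p over the single arrays left out). The 4 called members became 2 with a gene's probe sets averaged, 2 with values floored at the absent-transcript controls, 2 without both replicate 3 arrays, 1 at a threshold of 0.01 and 1 against a 1.5-fold change, and 2 to 3 with 1 array left out. The 5 called probe sets became 10 after centring arrays on kept genes, 3 with the floor, 3 without both replicate 3 arrays, 2 at 0.01 and 2 against 1.5-fold, and 3 to 4 with 1 array left out. Ligands, partners and families together gave 22 calls in 36 tested genes, 14 at 0.01 and 6 against 1.5-fold. Under the centrings on kept genes and on hybridization controls the calls were 34 and 12. Those centrings gave 10667 and 6709 calls over all 12739 tested genes. Over all genes 7179 calls became 3774 against 1.5-fold. Of all called genes 43.6% were higher in Gr1hi, 78.3% after centring on kept genes and 27.7% on hybridization controls, where the median difference was 0.70 and -0.23. The sign changed for members that were not called: Ly86 (0.17 after repeated quantile normalization, 0.62 centred on kept genes, 0.11 with array weights, -0.57 to 0.48 with 1 array left out), Ms4a6c (0.03 after repeated quantile normalization, 0.49 centred on kept genes, -0.67 to 0.16 with 1 left out), Cx3cr1 and Pld4 (-0.08 and -0.15 centred on hybridization controls; Pld4 -0.33 to 0.49 with 1 left out) and Ccr2 (-0.19 to 1.38 with 1 left out). The cause was not tested. With the replicate number as a block, the calls over all genes were 7059, those of the members 5 with Ccr2 added (0.72, adjusted p = 0.0343), and those of the probe sets 7. Same-numbered arrays shared deviations for replicates 1 and 3 (r = 0.166 and 0.145 across genes) but not for 2 (0.00429), so the numbers were not taken as pairs. In that fit an F test of the replicate number, added after the data were seen, passed for 0 genes (limma; 777 at an unadjusted p under 0.05), and Ccr2 had the smallest p, 5.79e-05 (adjusted p = 0.324). With no detection calls, low values cannot be told from absent transcripts.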
